A study of Arabidopsis thaliana with 4 samples.

Results

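The levels of 10 transcription factor genes of the CBF and DREB2 families were followed in *Arabidopsis thaliana* leaves that differed in genotype and in replicate number. The members were taken by locus from the gene tables: *CBF1* (AT4G25490), *CBF2* (AT4G25470), *CBF3* (AT4G25480), *CBF4* (AT5G51990), *DDF1* (AT1G12610), *DDF2* (AT1G63030), *DREB2A* (AT5G05410), *DREB2B* (AT3G11020), *DREB2C* (AT2G40340) and *DEAR1* (AT3G50260). All 10 were among the 32633 loci measured, and 8 of them, all but *CBF4* and *DDF2*, had a mean level of at least 1 FPKM over the 4 libraries and were tested along with 16905 genes in all. FPKM scales the sequenced fragments of a gene by its transcript length and by the mapped reads of the library, so levels can be compared between genes of different length. Leaves came from 3-week-old *ldl1 ldl2* plants, which carry mutations in both *LDL1* and *LDL2* in the Columbia-0 (Col-0) background, and from wild-type (WT) Col-0 plants. Each genotype had 2 libraries, described in the study's methods as biological replicates. None of the plants was treated, and the labels give a chamber at 21 °C with 12 h of daylight for all of them. The *ldl1 ldl2* plants descend from a cross of a single insertion allele of each gene. *LDL1* and *LDL2* encode relatives of a human histone demethylase that removes methyl groups from lysine 4 of histone H3.

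CBF factors, also named DREB1, carry an AP2 DNA-binding domain and bind the C-repeat/dehydration-responsive element (CRT/DRE, core CCGAC) in promoters of genes for cold and drought tolerance. In leaves, *CBF1*, *CBF2* and *CBF3* are known for a rapid and transient rise in the cold, and at warm temperature their transcripts follow the circadian clock. DREB2 factors bind the same element during drought and heat, and the DREB2A protein is kept low by ubiquitin ligases in unstressed plants. DDF1 and DDF2 are close relatives of the CBF factors named for the dwarf, late-flowering plants that overproduce them, and DEAR1 joins a DREB-type AP2 domain to an EAR repression motif.

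Replicate 1 and replicate 2 stood apart in both genotypes. Across the genes tested, log2(FPKM + 1) correlated at r = 0.915 between the *ldl1 ldl2* libraries and 0.846 between the WT libraries, against 0.954 between the genotypes in replicate 1 and 0.954 in replicate 2. These are descriptions across genes, which are not independent replicates. Every member is therefore given below as a difference between genotypes within each replicate number and between replicate numbers within each genotype. *LDL1* was at 4.44 and 4.09 FPKM in *ldl1 ldl2* replicates 1 and 2 and at 4.37 and 5.001 FPKM in WT, and *LDL2* was at 0.281 and 0.673 FPKM in *ldl1 ldl2* and at 1.04 and 0.944 FPKM in WT. A level per gene includes fragments on either side of an insertion, so these values do not check the genotype labels. The deposited values give no read depth, but the most common ratio between their low values put the other libraries at 1.11 to 1.15 times the depth of *ldl1 ldl2* replicate 1. Of the markers of other tissues, those of root and seed were at 0 or summed to at most 0.283 FPKM in a library, while the 4 leaf mesophyll markers summed to between 14856 and 40718 FPKM.

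The 250 bases before the annotated start of a gene hold part of its promoter. They are printed for *CBF2*, *DREB2A* and *DEAR1*, on which the comparisons below turn, and for the pair *DDF1* and *DDF2*, whose windows share a run of bases at nearly the same place. Positions are from the RefSeq annotation of TAIR10.1, and each sequence is given 5′ to 3′ on the strand of its gene. Capitals mark matches on either strand to the motifs searched, which are described after the sequences.
*CBF2*, chr4:13016236-13016485, minus strand: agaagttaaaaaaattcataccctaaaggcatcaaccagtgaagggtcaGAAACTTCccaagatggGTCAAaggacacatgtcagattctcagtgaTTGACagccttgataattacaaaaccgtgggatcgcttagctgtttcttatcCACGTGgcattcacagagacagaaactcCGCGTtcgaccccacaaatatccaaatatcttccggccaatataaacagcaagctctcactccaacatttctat
*DDF1*, chr1:4291018-4291267, minus strand: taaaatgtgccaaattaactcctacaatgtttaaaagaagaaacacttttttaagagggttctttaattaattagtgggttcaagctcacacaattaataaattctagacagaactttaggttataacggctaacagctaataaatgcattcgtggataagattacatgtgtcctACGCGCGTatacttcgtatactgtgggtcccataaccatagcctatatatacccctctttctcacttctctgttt
*DDF2*, chr1:23368417-23368666, minus strand: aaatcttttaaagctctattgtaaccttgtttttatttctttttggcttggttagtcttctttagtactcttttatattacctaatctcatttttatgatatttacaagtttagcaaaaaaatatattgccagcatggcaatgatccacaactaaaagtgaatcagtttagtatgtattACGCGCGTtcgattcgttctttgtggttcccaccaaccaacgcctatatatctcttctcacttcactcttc
*DREB2A*, chr5:1601955-1602204, plus strand: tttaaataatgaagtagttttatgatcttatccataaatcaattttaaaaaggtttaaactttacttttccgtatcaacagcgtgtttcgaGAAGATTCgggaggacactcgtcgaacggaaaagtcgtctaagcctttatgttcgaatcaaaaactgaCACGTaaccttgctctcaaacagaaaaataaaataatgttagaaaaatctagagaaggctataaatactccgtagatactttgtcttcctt
*DEAR1*, chr3:18634296-18634545, plus strand: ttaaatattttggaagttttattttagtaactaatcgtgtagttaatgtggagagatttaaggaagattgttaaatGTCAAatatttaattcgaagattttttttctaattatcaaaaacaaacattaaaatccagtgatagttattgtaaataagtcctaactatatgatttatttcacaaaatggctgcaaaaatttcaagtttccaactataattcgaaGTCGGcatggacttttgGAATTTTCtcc

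The motifs searched on both strands were the CRT/DRE core CCGAC, the G-box CACGTG, the abscisic acid response core ACGTG, the evening element AAAATATCT, the CAMTA core CGCGT, the heat shock element GAANNTTC and the W-box core TTGAC. The ACGTG core lies inside every CACGTG, so a G-box was also counted as that core. The CAMTA core, bound by calmodulin-binding CAMTA activators, was in the windows of 3 of the 10 members, *CBF2*, *DDF1* and *DDF2*, and in 6.87% of the windows of 27443 protein-coding genes. In *DDF1* and *DDF2* it was met on both strands within the run ACGCGCGT, which lay at positions -75 to -68 from the start of *DDF1* and -71 to -64 from that of *DDF2*. GAANNTTC was in the windows of *CBF2*, *DREB2A* and *DEAR1* and in 9.55% of all windows. *DEAR1* was the only member with a CCGAC in its window, on the opposite strand at -28 to -24, and 12.0% of all windows held this core. Neither *CBF1* nor *CBF3* had a match to any of the 7 motifs, but their annotated starts lie 434 and 397 bases before the coding start, against 149 bases in *CBF2*. In the 500 bases before the coding start, ACGTG was present in 6 of the 10 members and in 34.9% of the 27443 genes, 4 times in *CBF4*, 3 times in *CBF1*, 2 times in *CBF2* and 1 time each in *CBF3*, *DDF1* and *DREB2C*. The evening element was present 1 time each in *CBF3*, *CBF4* and *DREB2A*, and in 4.02% of the genes. In the windows before the annotated start it was in 0 of the 10 members and 2.36% of all windows. In the 500 bases GAANNTTC was met in *CBF2* and *DEAR1* but not in *DREB2A*, and in 21.0% of the genes. The annotated starts of *DREB2A* and *DREB2B* lie 445 and 654 bases before their coding starts. Most of this window in *DREB2A*, and all of it in *DREB2B*, thus lies after the annotated start. The GAANNTTC of *DREB2A*, at -159 to -152 from its annotated start, falls outside the window. TTGAC was in 8 of the 10 members there and in 65.9% of the genes. In the windows before the annotated start TTGAC was in 3 members and in 44.9% of all windows. Such a match is a string of letters and was not tested as a binding site.

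In *ldl1 ldl2* leaves *CBF1*, *CBF2*, *DDF1* and *DEAR1* exceeded WT by 2-fold or more within both replicate numbers, that is, by at least 1 on the log2(FPKM + 1) scale. These are 4 of the 8 members tested, and 1.4% of all genes tested met the same rule. Of these members *DDF1* passed the minimum for the test only through its *ldl1 ldl2* libraries, so the filter favoured its place in the count. No member was at least 2-fold lower in both, which 0.148% of the genes were. In replicate 1 alone 5 of the 8 members were at least 2-fold higher, against 3.22% of the genes, and in replicate 2 alone 4 were, again against 3.22%. All 8 members tested were higher in *ldl1 ldl2* in both replicate numbers, as 3341 of the 16905 genes tested were. The medians of the members were 1.28 and 0.93 in replicates 1 and 2, where the medians over all genes tested were 0.01 and -0.10. The members were chosen with earlier results of these libraries known, and *CBF2* and *DREB2A* are on the list of differentially expressed genes that the study drew from these libraries, so these counts are not independent evidence of a direction. In bulk leaf RNA, a change in the share of cells that express a gene cannot be told apart from a change in RNA per cell.

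**Figure D1:**
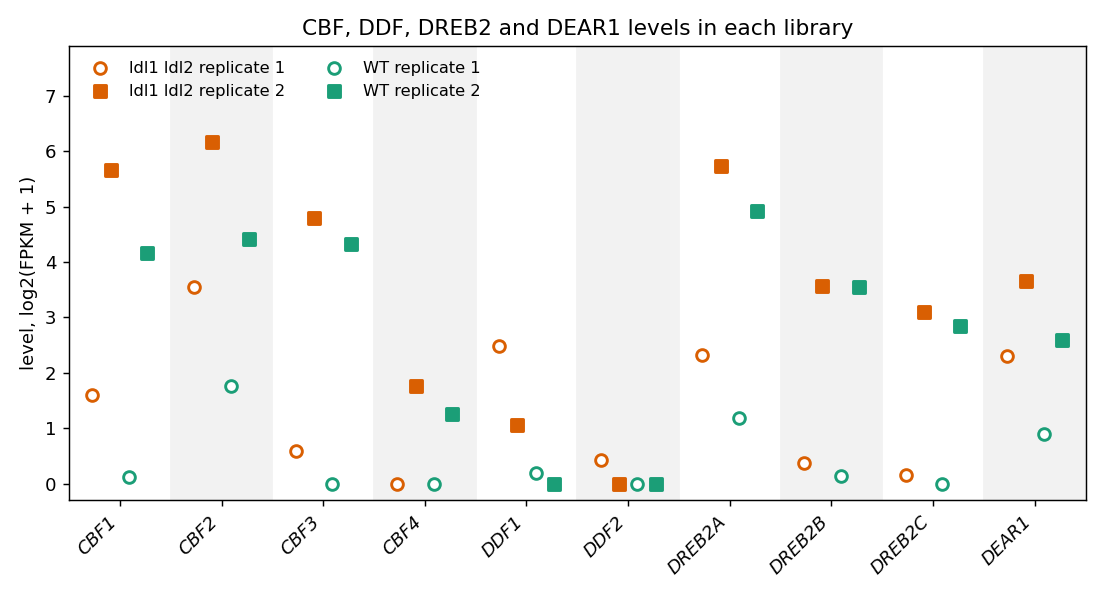
Level of each of the 10 members in the 4 libraries, as log2(FPKM + 1) on the vertical axis, with *ldl1 ldl2* in orange and WT in green, replicate 1 as open circles and replicate 2 as filled squares. Each point is 1 library. For *CBF1*, *CBF2*, *CBF3*, the 3 *DREB2* genes and *DEAR1* both squares lie above both circles, and *DDF1* alone among the 8 members tested has both orange points above both green ones.

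*CBF2*, which encodes a cold-induced activator of CRT/DRE genes, had the highest mean level of the members at 26.2 FPKM. It was at 10.7 and 71.1 FPKM in *ldl1 ldl2* replicates 1 and 2, against 2.405 and 20.4 FPKM in WT replicates 1 and 2. Each *ldl1 ldl2* library was above the WT library of its number, but WT replicate 2 was above *ldl1 ldl2* replicate 1, so the genotypes overlapped. On the log2(FPKM + 1) scale *CBF2* was higher in *ldl1 ldl2* by 1.78 in replicate 1 and 1.75 in replicate 2, larger than the differences of 99.2% and 98.7% of the genes tested. The FPKM values themselves differed 4.455-fold and 3.48-fold.

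*CBF1*, a cold-induced activator whose gene lies next to *CBF3*, was at 2.04 and 49.6 FPKM in *ldl1 ldl2* replicates 1 and 2, against 0.0888 and 16.9 FPKM in WT. It was barely detected in WT replicate 1 and well detected in WT replicate 2, which again exceeded *ldl1 ldl2* replicate 1. The difference between genotypes was 1.48 in replicate 1 and 1.5 in replicate 2 on the log2(FPKM + 1) scale, close to that of *CBF2*. In FPKM it was 23.0-fold in replicate 1, where the WT level was near 0, and 2.94-fold in replicate 2. *CBF3*, also known as *DREB1A*, was at 0.512 and 26.6 FPKM in *ldl1 ldl2*, while it was listed at 0 in WT replicate 1 and was at 19.1 FPKM in WT replicate 2. Its differences of 0.60 and 0.46 were the smallest of these 3 neighbouring genes, below 2-fold in both replicate numbers. The 3 genes are near copies, with 85.0% to 86.7% identical bases in their coding sequences and identical runs of up to 68 bases between *CBF1* and *CBF2*. No stretch of 100 bases was shared between them, so a read of 100 bases without mismatches fits only 1 of these genes. Reads cut shorter or holding mismatches could match more than 1. The sources do not say how such fragments were shared out, so a part of the signal of each may still belong to its copies.

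*CBF4*, a relative of *CBF1* induced by drought and abscisic acid rather than by cold, was listed at 0 in *ldl1 ldl2* replicate 1 and was at 2.40 FPKM in replicate 2, against 0 and 1.38 FPKM in WT. It was seen only in the libraries of replicate 2 and was below the minimum for the test, with a difference of 0.515 between the genotypes there. *DDF1*, whose overproduction lowers gibberellin and dwarfs the plant, was at 4.63 and 1.08 FPKM in *ldl1 ldl2* replicates 1 and 2, against 0.151 FPKM in WT replicate 1 and 0 in WT replicate 2. *DDF1* was the only tested member with both *ldl1 ldl2* libraries above both WT libraries, an order found in 8.25% of the genes tested, while the opposite order was found for 0 members and 13.3% of the genes. Its differences of 2.29 and 1.06 on the log2(FPKM + 1) scale were unequal, and the level was low in 3 of the 4 libraries. With a mean of 1.465 FPKM, *DDF1* passed the minimum for the test only through its *ldl1 ldl2* libraries. The filter therefore favoured this order, which is not independent evidence of a difference. *DDF2*, the closest relative of *DDF1* with 69.3% identical coding bases, was at 0.3501 FPKM in *ldl1 ldl2* replicate 1 and was listed at 0 in the other 3 libraries, below the minimum for the test, which gives differences of 0.43 in replicate 1 and 0 in replicate 2.

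*DREB2A*, which encodes the main DREB2 activator of drought and heat responses, was at 3.97 and 52.1 FPKM in *ldl1 ldl2* replicates 1 and 2, against 1.26 and 29.5 FPKM in WT. The order of the libraries was that of *CBF1* and *CBF2*, with both libraries of replicate 2 above both of replicate 1. The genotypes differed by 1.135 in replicate 1 and 0.80 in replicate 2, so only the first passed 2-fold on this scale. *DREB2B*, the nearest relative of *DREB2A* with 63.4% identical coding bases, was at 0.292 and 10.9 FPKM in *ldl1 ldl2*, against 0.105 and 10.7 FPKM in WT. In replicate 2, where it was well detected, its levels in the genotypes differed by 0.02 on the log2(FPKM + 1) scale. *DREB2C*, a heat-responsive member of the same group, was at 0.122 and 7.52 FPKM in *ldl1 ldl2*, while WT replicate 1 was listed at 0 and WT replicate 2 was at 6.22 FPKM. Its differences between genotypes were 0.17 and 0.24, so that of the *DREB2* members only *DREB2A* came near a 2-fold difference.

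*DEAR1*, listed by RefSeq as *CEJ1*, encodes a repressor that lowers cold tolerance when overproduced. It was at 3.97 and 11.55 FPKM in *ldl1 ldl2* replicates 1 and 2, against 0.859 and 5.02 FPKM in WT. The genotypes differed by 1.42 and 1.06 on the log2(FPKM + 1) scale, or 4.62-fold and 2.30-fold in FPKM. WT replicate 2 lay just above *ldl1 ldl2* replicate 1, so the genotypes overlapped here too. Activators (*CBF1*, *CBF2* and *DREB2A*, the last by 2-fold only in replicate 1) and this repressor thus differed in the same direction.

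**Figure D2:**
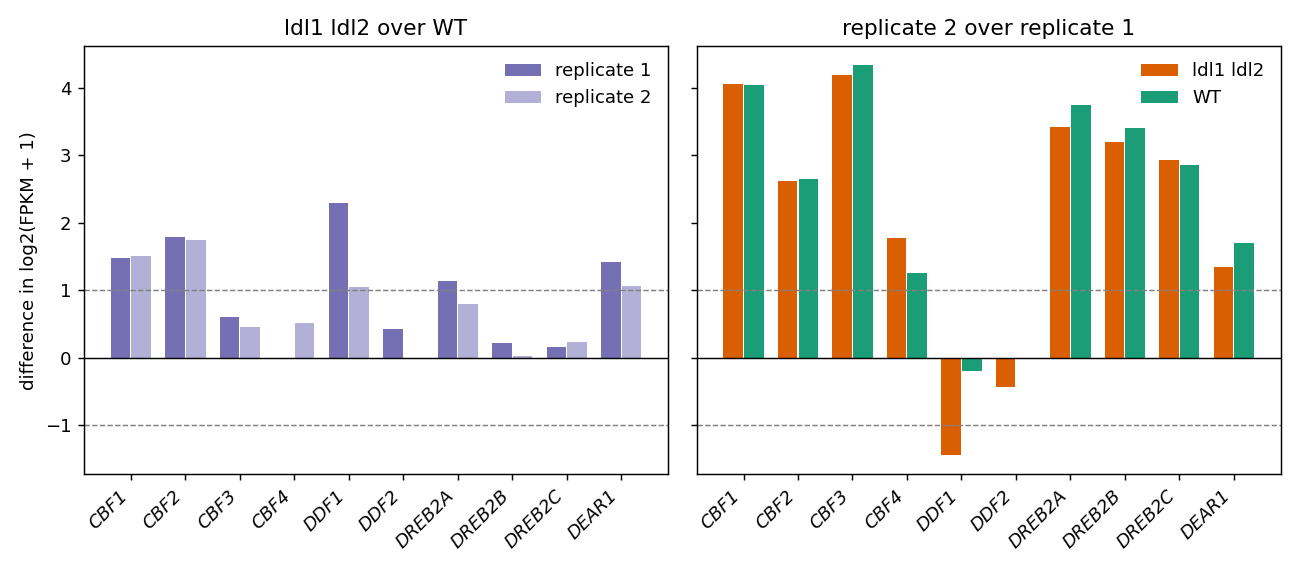
Difference in log2(FPKM + 1) for each member, *ldl1 ldl2* over WT within replicates 1 and 2 on the left and replicate 2 over replicate 1 within *ldl1 ldl2* and WT on the right. Dashed lines mark a difference of 1 in either direction, and bars at 0 stand for equal values, as for *DDF2* in replicate 2. *CBF1* and *CBF2* have bars of nearly equal height in both replicates on the left, and the bars on the right reach 4.19 and 4.33 for *CBF3*.

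With the 4 libraries fitted together, none of the 8 members passed an adjusted p of 0.05 in limma, which fits a linear model to every gene and shares information on the spread between them. None of the 16905 genes did either, so percent called was 0. At an unadjusted p under 0.05 there were 394 genes, of the members *DDF1* alone, and the adjusted values began at 0.755. *DDF1* passed the minimum for the test only through its *ldl1 ldl2* libraries, so the filter favoured a difference there. The log2 fold change of *CBF2* was 1.77 with a standard error of 1.28 (adjusted p = 1.00 from limma), and that of *DDF1* was 1.67 with a standard error of 0.56 (adjusted p = 1.00 from limma). For *CBF1*, *CBF3*, *DREB2A*, *DREB2B* and *DREB2C* the standard error, between 1.40 and 2.05, was larger than the log2 fold change itself, and for *DEAR1* the values were 1.24 and 0.77. The difference between replicate numbers is part of the spread in this fit. Exact permutation of 2 libraries against 2 gives no two-sided p below 0.333, so it was not used. Leaving out *ldl1 ldl2* replicate 2 or WT replicate 1 turned the direction of 5 members, with log2 fold changes as low as -0.54 for *CBF1*, -1.64 for *CBF3*, -0.91 for *DREB2A*, -1.575 for *DREB2B* and -1.26 for *DREB2C*. Under every alternative run *CBF2* was at 0.44 or more, *DEAR1* at 0.39 or more and *DDF1* at 0.95 or more. These lowest values also came from fits with 1 library left out. Such a fit leaves the genotypes with unequal replicate numbers, so the replicate difference enters its log2 fold change. It therefore cannot show whether the difference between genotypes is stable.

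By mean difference, every tested member but *DDF1* differed more between the replicate numbers than between the genotypes. Of the 8 members tested, 7 were at least 2-fold higher in replicate 2 than in replicate 1 in both genotypes, *DDF1* being the exception, and 5.02% of the genes tested met this rule. Taken by genotype, 7 members did so in *ldl1 ldl2*, against 6.29% of the genes, and 7 in WT, against 12.2%. None was at least 2-fold lower in replicate 2 in both genotypes, as 4.34% of the genes were. In those 7 members both libraries of replicate 2 lay above both of replicate 1, an order seen in 40.6% of the genes tested. Of them, *CBF3*, *DREB2B* and *DREB2C* were below 1 FPKM in both libraries of replicate 1. These genes passed the minimum for the test only through replicate 2, so the filter itself fixed their direction. The median difference of the 8 members was 3.06 in *ldl1 ldl2* and 3.125 in WT, where the medians of all genes tested were 0.07 and 0.20.

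*CBF3* and *CBF1* had the widest differences between the replicate numbers. *CBF3* was higher in replicate 2 by 4.19 in *ldl1 ldl2* and 4.33 in WT on the log2(FPKM + 1) scale, and *CBF1* by 4.06 and 4.04, each wider than in at least 99.5% of the genes tested. *CBF2*, which was already detected in replicate 1, was higher by 2.62 in *ldl1 ldl2* and 2.65 in WT. On this scale the replicate difference of each of these 3 genes was nearly the same in the genotypes. In FPKM *CBF1* was 24.3-fold higher in replicate 2 in *ldl1 ldl2* and 190-fold in WT, from 0.0888 FPKM in WT replicate 1. *CBF3* was listed at 0 in WT replicate 1, so the near equality of *CBF1* and *CBF3* rests on the 1 added to each level. *DREB2A* was higher in replicate 2 by 3.42 in *ldl1 ldl2* and 3.75 in WT, *DREB2B* by 3.20 and 3.40, and *DREB2C* by 2.925 and 2.85. *DEAR1* stood lower in this order, at 1.34 in *ldl1 ldl2* and 1.70 in WT, and *CBF4*, below the minimum for the test, was at 1.77 and 1.25. *DDF1* went the other way, with differences of -1.44 in *ldl1 ldl2* and -0.20 in WT. With a pseudocount of 0.1 in place of 1, *DDF1* was at least 2-fold lower in replicate 2 in both genotypes. The sources used here do not say how the plants of replicates 1 and 2 differed in growth or harvest.

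Profiles over the 4 libraries were compared as the Euclidean distance between log2(FPKM + 1) values, each gene centred on its own mean. Among the 8 members tested *DREB2B* and *DREB2C* were nearest to each other, at a distance of 0.44, and *CBF1* was at 0.72 from *DREB2A*, 0.99 from its neighbour *CBF3* and 1.44 from *CBF2*. *DDF1* was the farthest from the others, with distances of 2.42 to *DEAR1* and 5.24 to *CBF3*. Among all other genes tested, *CBF2* was nearest to *AT3G59930* at 0.18, *ZAT6*, a zinc-finger factor gene, at 0.68 and *HSFA8*, a heat shock factor gene, at 0.81. *DREB2A* was nearest to *DIP2* at 0.43, *AT5G49015* at 0.46 and *BBX13*, a B-box zinc-finger gene, at 0.46. *ZAT6* had the order of libraries of *CBF2*, at 24.1 and 80.2 FPKM in *ldl1 ldl2* replicates 1 and 2 and at 3.92 and 27.8 FPKM in WT. With 4 libraries these distances describe the values only.

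*CBF2*, *CBF3* and *CBF1* lie in this order on the minus strand of chromosome 4, from 13015250 to 13022996 in TAIR10.1, and each has a single exon in RefSeq. None of the 5 flanking genes that passed the minimum differed at least 2-fold between the genotypes in either replicate number. On the side of *CBF2*, *ABCB28*, a transporter gene, differed between genotypes by 0.12 and -0.21 in replicates 1 and 2 and *ZFWD1* by 0.19 and -0.07. On the side of *CBF1*, *RS40*, a splicing factor gene, was at 18.8 and 110.0 FPKM in *ldl1 ldl2* and at 13.5 and 166.5 FPKM in WT, which is 0.45 in replicate 1 and -0.59 in replicate 2. *RS40* did share the replicate difference, at 2.48 in *ldl1 ldl2* and 3.53 in WT, and *AT4G25510* beyond it was higher in replicate 2 by 1.36 and 1.16. *AT4G25510* overlaps the end of *RS40*, so the fragments of these genes may not be fully separated, and *AT4G25435* on the other side was listed at 0 in every library.

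**Figure D3:**
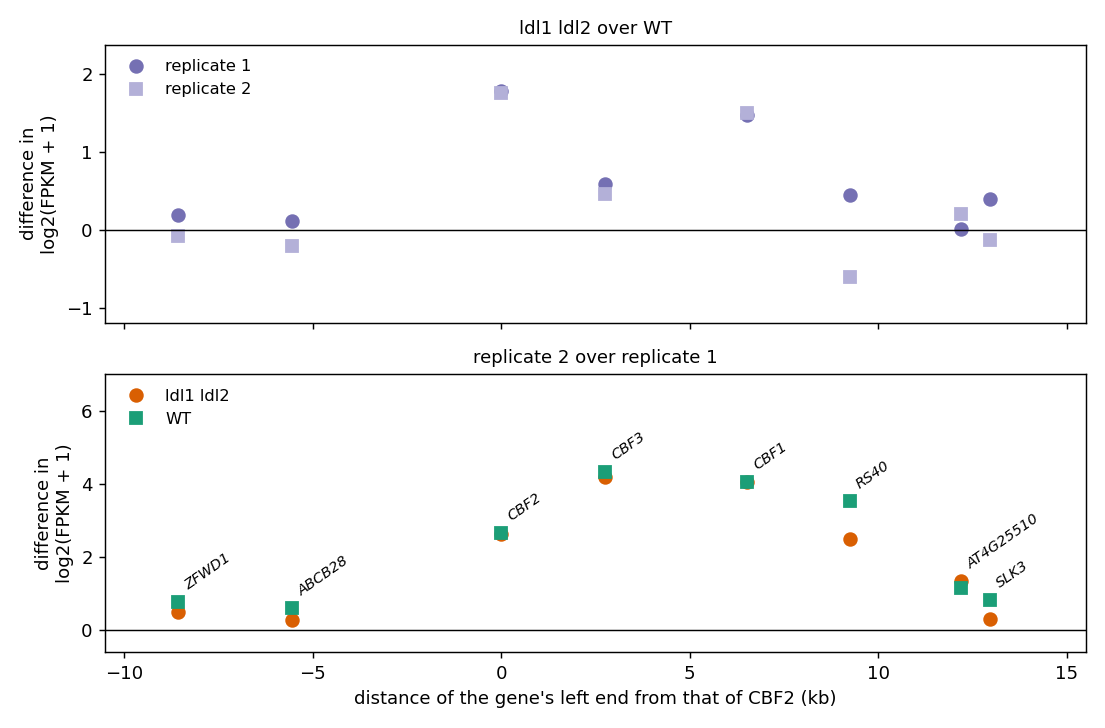
Difference in log2(FPKM + 1) for *CBF2*, *CBF3*, *CBF1* and the flanking genes above the minimum for the test, by the distance of the left end of each gene from that of *CBF2* in kb. The upper panel gives *ldl1 ldl2* over WT within each replicate number and the lower panel replicate 2 over replicate 1 within each genotype. Above, *CBF2* stands at 1.78 and 1.75 and *CBF1* at 1.48 and 1.5 while the flanking genes lie between -0.59 and 0.45, and below, *RS40* stands with the *CBF* genes.

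Of 18 known regulators of the *CBF* genes, *MYB15* and *ZAT12* were 2-fold or more above WT in both replicate numbers and 0 were as far below it, with medians of 0.07 and -0.15 in replicates 1 and 2. Of all genes tested, 1.4% were as far above WT and 0.148% as far below it. *MYB15*, which encodes a repressor of *CBF* genes, was at 2.08 and 2.905 FPKM in *ldl1 ldl2*, against 0.171 and 0.395 FPKM in WT. It passed the minimum for the test only through its *ldl1 ldl2* libraries. *ZAT12*, a zinc-finger factor gene that lowers *CBF* expression when overproduced, was at 86.2 and 147.0 FPKM in *ldl1 ldl2*, against 18.4 and 17.25 FPKM in WT. In both genes the *ldl1 ldl2* libraries were all above the WT libraries, and the higher level of these repressor genes stood beside a higher level of *CBF1* and *CBF2*. Other repressor genes of the list, described below, did not share this. *SOC1* had differences between genotypes of -0.23 and -0.49 in replicates 1 and 2, *COR28* of -0.31 and -0.50, and *COR27* of 0.29 and -0.40. *OST1*, a protein kinase gene whose product stabilizes the activator ICE1 in the cold, was at 13.4 and 14.5 FPKM in *ldl1 ldl2* and at 30.7 and 20.3 FPKM in WT, a difference of -1.14 and -0.46. *ICE1* itself differed by 0.07 and -0.30. Of the CAMTA activator genes, *CAMTA3* differed by 0.79 and 0.01, and *CAMTA1* by 0.07 and 0.115.

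Of the same regulators, 4 were at least 2-fold higher in replicate 2 in both genotypes, against 5.02% of all genes tested. *COR28* and *COR27*, genes of the evening that repress clock genes and *CBF* genes, had the widest differences of the list. *COR27* was at 0.508 and 136 FPKM in *ldl1 ldl2* replicates 1 and 2 and at 0.231 and 180 FPKM in WT. *COR28* was listed at 0 in *ldl1 ldl2* replicate 1 and was at 144 FPKM in replicate 2, and it was at 0.241 and 204 FPKM in WT. Both *COR27* and *COR28* passed the minimum for the test only through replicate 2. *SOC1*, a flowering activator that represses *CBF* genes, was higher in replicate 2 by 1.94 in *ldl1 ldl2* and 2.20 in WT, and *PIF3*, a light-signalling factor gene, by 1.24 and 1.32. *PIF7* was lower in replicate 2, with differences of -0.77 and -1.42. For each of these 5 genes the sign was the same in both genotypes.

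The clock sets the daily rhythm of the *CBF* genes. Of 8 clock genes 4 were at least 2-fold higher in replicate 2 in both genotypes, 2 were at least 2-fold lower and 0 differed at least 2-fold between the genotypes in both replicate numbers. Of all genes tested, 5.02% were higher and 4.34% lower in replicate 2 by these rules. Between the genotypes 1.4% were higher and 0.148% lower in *ldl1 ldl2*, so 0 of 8 is near the share of all genes. The evening gene *TOC1* was at 3.48 and 88.0 FPKM in *ldl1 ldl2* replicates 1 and 2 and at 2.94 and 109 FPKM in WT. *PRR5* was higher in replicate 2 by 5.79 in *ldl1 ldl2* and 5.70 in WT, *LUX* by 4.235 and 5.06, and *GI* by 3.785 and 4.24. In replicate 1 *PRR5* was at 0.174 FPKM in *ldl1 ldl2* and listed at 0 in WT, so it passed the minimum only through replicate 2. The morning gene *CCA1*, which encodes an activator of the *CBF* genes, was at 16.6 and 2.44 FPKM in *ldl1 ldl2* and at 50.45 and 3.85 FPKM in WT, and *LHY*, its close relative, had differences of -2.845 and -4.27. *CCA1* also differed between genotypes in replicate 1, by -1.55, but by -0.49 in replicate 2. The part of the clock genes in the replicate difference of the *CBF* and *DREB2* genes was not tested.

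Of 11 genes for regulators of *DREB2A* 10 passed the minimum, and 0 differed at least 2-fold between the genotypes in both replicate numbers, with medians of 0.30 and -0.23 in replicates 1 and 2. *DRIP1* and *DRIP2*, which encode the ubiquitin ligases of the DREB2A protein, differed by 0.02 and -0.43 and by 0.40 and 0.07. *HSFA1E*, a heat shock factor gene whose family activates *DREB2A*, was the only gene of this list at least 2-fold higher in replicate 2 in both genotypes, by 1.22 in *ldl1 ldl2* and 1.325 in WT. *GRF7*, a repressor gene of *DREB2A*, reached at most 0.579 FPKM and was below the minimum. Of 9 other *DREB2* and *DEAR* genes, 6 passed the minimum, and 0 differed at least 2-fold in both replicate numbers or in both genotypes. Of all genes tested, 1.4% were at least 2-fold higher and 0.148% lower in *ldl1 ldl2* in both replicate numbers. In both genotypes 5.02% were at least 2-fold higher and 4.34% lower in replicate 2. The counts of 0 in these 2 short lists are thus near the shares of all genes. *DEAR5* was at 2.685 and 6.14 FPKM in *ldl1 ldl2* and at 0.1805 and 12.6 FPKM in WT, a difference of 1.64 in replicate 1 and -0.93 in replicate 2. *DREB2E* and *DREB2G* were listed at 0 in every library.

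Of 19 CRT/DRE target genes, which CBF and DREB2 factors are known to activate, 0 were 2-fold or more above WT and 0 as far below it in *ldl1 ldl2* within both replicate numbers. Of all genes tested, 1.4% and 0.148% met these rules, so 0 in a list of 19 is near the share of all genes. The medians of the 19 targets were 0.11 in replicate 1 and -0.20 in replicate 2. By sign alone 5 were higher in both and 6 were lower in both. Of all 16905 genes tested, 3341 were higher in both and 5242 lower in both. *COR15A*, which encodes a chloroplast protein that protects membranes during freezing, was at 354 and 873 FPKM in *ldl1 ldl2* replicates 1 and 2, against 650 and 1369 FPKM in WT, a difference of -0.87 and -0.65. *RD29A*, a classic reporter of the CRT/DRE element, was at 2.27 and 235 FPKM in *ldl1 ldl2*, against 9.33 and 328 FPKM in WT, a difference of -1.66 and -0.48. *KIN1* was at 4.45 and 157 FPKM in *ldl1 ldl2*, against 8.62 and 237.5 FPKM in WT. All 3 were lower in *ldl1 ldl2* within each replicate number, opposite in sign to *CBF1* and *CBF2*, and none passed limma. *COR47*, a dehydrin gene, was instead higher, at 208 and 796 FPKM in *ldl1 ldl2*, against 157 and 604 FPKM in WT. *GOLS3*, which encodes a raffinose pathway enzyme, was at 0.131 and 6.03 FPKM in *ldl1 ldl2*, against 0.296 and 1.525 FPKM in WT, a difference of -0.20 in replicate 1 and 1.48 in replicate 2. *HSFA3*, a heat shock factor gene activated by DREB2A and DREB2C, had both *ldl1 ldl2* libraries, at 1.85 and 1.99 FPKM, above both WT libraries, at 0.7265 and 0.443 FPKM. *HSFA3* passed the minimum for the test only through its *ldl1 ldl2* libraries, so the filter favoured this order.

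**Figure D4:**
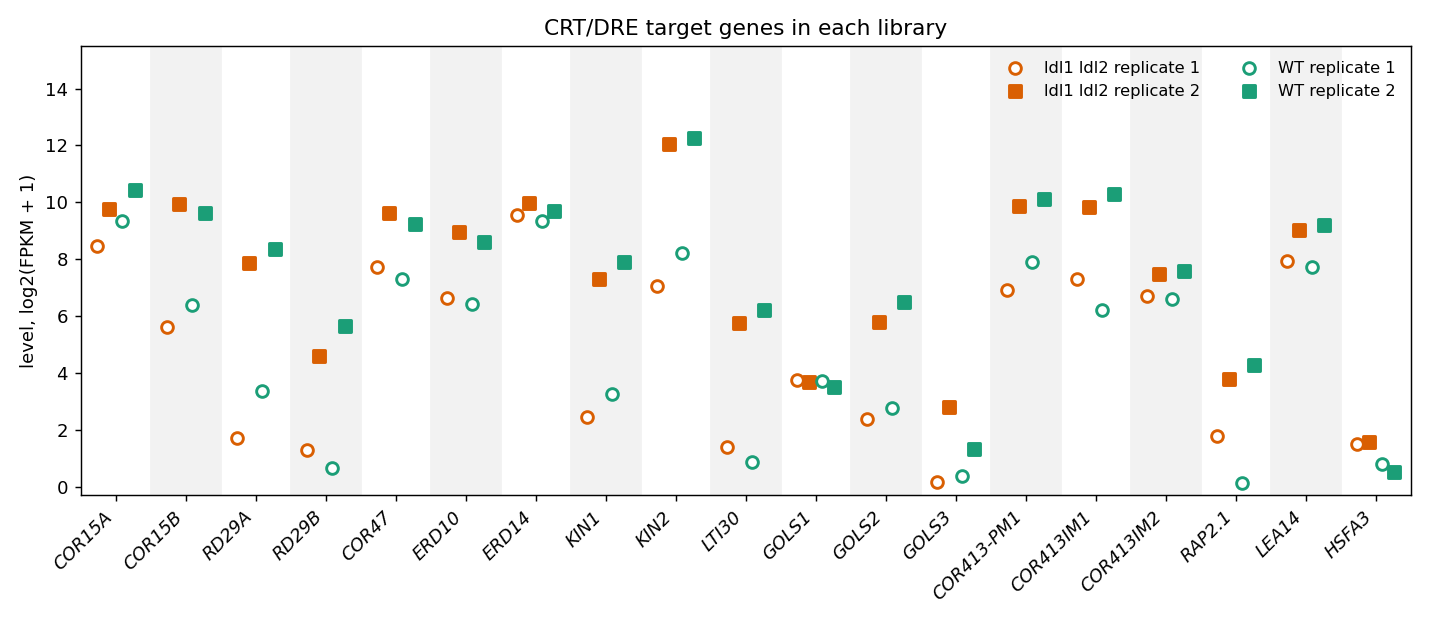
Level of 19 known CRT/DRE target genes in the 4 libraries as log2(FPKM + 1), drawn as in the plot of member levels, with *ldl1 ldl2* in orange, WT in green, replicate 1 as open circles and replicate 2 as filled squares. The squares lie above the circles in most genes, by a median of 2.55 in *ldl1 ldl2* and 2.21 in WT, while orange and green points change order from gene to gene.

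Of the 19 target genes 14 were at least 2-fold higher in replicate 2 than in replicate 1 in both genotypes and 0 were as far below, with medians of 2.55 in *ldl1 ldl2* and 2.21 in WT. Of all genes tested, 5.02% were as far above and 4.34% as far below. *RD29A* had the widest difference, 6.17 in *ldl1 ldl2* and 4.99 in WT, followed by *LTI30*, a dehydrin gene, at 4.35 and 5.35 and *KIN1* at 4.86 and 4.63. *COR15A* had 1.30 and 1.07, and *GOLS1*, a heat-responsive galactinol synthase gene, was nearly level at -0.05 and -0.20. *KIN1* and *KIN2* are neighbouring near copies, as are *COR15A* and *COR15B*, and the sources do not say how their fragments were shared out. The core CCGAC was in the 250-base windows of 7 of the 19 targets, or 36.8%, against 12.0% of all windows. The genes were listed as known targets of this element, so a higher share is not independent evidence.

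**Figure D5:**
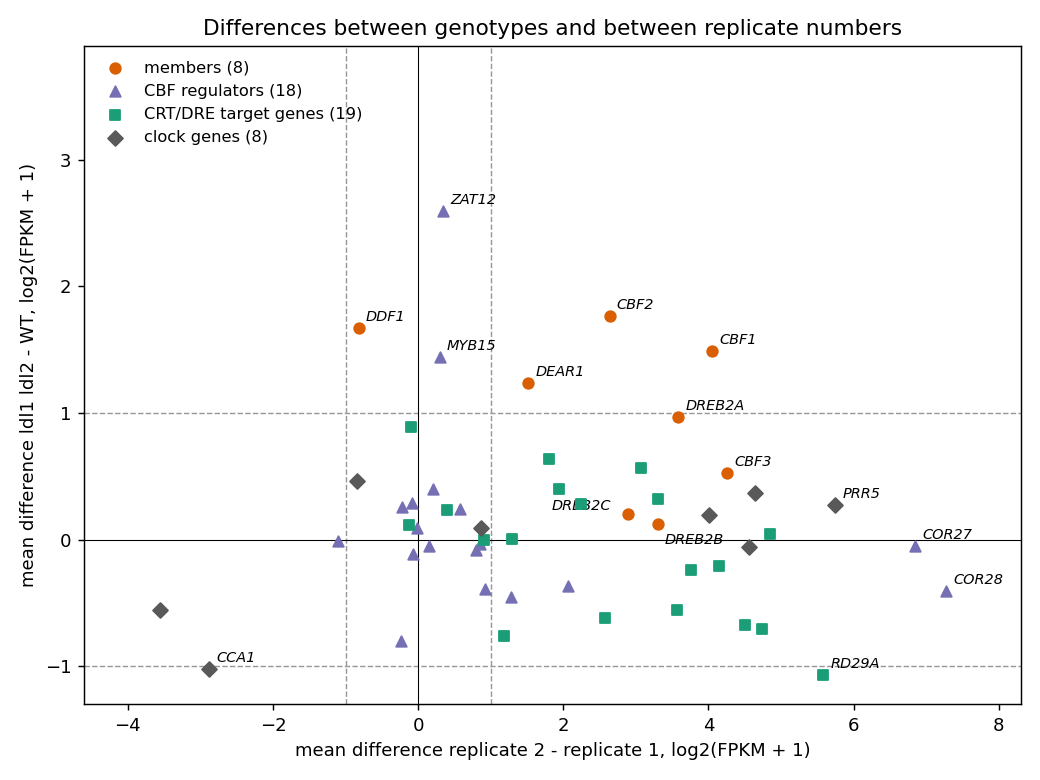
Mean difference *ldl1 ldl2* minus WT (vertical) against mean difference replicate 2 minus replicate 1 (horizontal), both in log2(FPKM + 1), for the 8 members tested, 18 *CBF* regulators, 19 CRT/DRE targets and 8 clock genes. Dashed lines mark a difference of 1. *CBF1* and *CBF2* lie far to the right and above 1, *ZAT12* and *MYB15* lie high near 0 on the horizontal axis, and the targets spread to the right around 0 on the vertical axis.

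The summed levels of touch genes and of flower markers also differed between these libraries. The 3 touch genes *TCH2*, *TCH3* and *TCH4*, named for their induction by handling, summed to 1905 and 1228 FPKM in *ldl1 ldl2* replicates 1 and 2, against 1511 and 254 FPKM in WT. They were higher in *ldl1 ldl2* by 2.58, 2.66 and 2.015 in replicate 2, and the differences in replicate 1 were 0.42, 1.16 and -0.18. The 3 flower markers summed to 1.39 and 4.31 FPKM in *ldl1 ldl2* replicates 1 and 2 and to 0.292 and 8.64 FPKM in WT, with *SEP3* at 0.0969 and 3.13 FPKM in *ldl1 ldl2* and at 0 and 4.46 FPKM in WT, while *AP1* was listed at 0 in all libraries but WT replicate 2. *AG*, the remaining flower marker, went otherwise, at 1.30 and 1.17 FPKM in *ldl1 ldl2* replicates 1 and 2 and at 0.292 and 0.726 FPKM in WT. The leaf mesophyll markers were all lower in replicate 2, with median differences of -0.71 in *ldl1 ldl2* and -1.51 in WT. The part of handling and of tissue composition in the levels of the *CBF* and *DREB2* genes was not tested.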

How the data were processed

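Leaf mRNA from 2 *ldl1 ldl2* and 2 WT libraries was analysed. According to the methods of the study, 100 bp paired-end reads of stranded libraries were aligned with TopHat2 and Bowtie2. The authors estimated FPKM for each library separately with Cufflinks on the TAIR10 gene models, and the deposited values are these FPKM. The submitters' processing notes add Trimmomatic 0.33, and the sources used here name no version of the others. An exact 0 can also be a failed estimate. FPKM are not counts, so no count test was run.

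Differences were taken on log2(FPKM + 1) without rescaling, which understates changes of low genes. The filter was a mean of 1 FPKM or more over the 4 libraries, and genes past it were fitted with limma 3.58.1 in R 4.3.3 (mean-variance trend, two-sided, Benjamini-Hochberg adjustment over 16905 genes, threshold 0.05), and the fit was tested on simulated data. All members were named, and from each list up to 5 genes with the widest mean difference plus a preset few. *ICE1*, the CAMTA genes, *DRIP1*, *DRIP2*, *GRF7*, *GOLS1*, *DREB2E* and *DREB2G* were added after their values were seen. The members and lists were chosen with earlier results of these data known. Alternatives were a pseudocount of 0.1, no filter on low values, 2 rescalings, the replicate number as a block and leaving out each library. RefSeq TAIR10.1 gave positions, names and sequences, matched by locus tag for 31893 of 32633 loci. The nuclear numbering of TAIR10.1 is that of TAIR10, and the FPKM tables carry no coordinates. Protein sequences were not used here.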

Additional observations from a re-analysis of the deposited data

How the results depend on the processing

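The numbers of the replicates are not said to mark shared plants, trays or days, and there are only 2 pairs, so the fit with the replicate number as a block stands here alone. The replicate differences of the genotypes had a correlation across genes of 0.726. With this replicate block limma called 311 genes higher and 37 lower in *ldl1 ldl2*, against 0 without it, and 4 of the 8 members: *CBF1* (adjusted p = 0.00429), *CBF2* (adjusted p = 0.00118), *DDF1* (adjusted p = 0.0165) and *DEAR1* (adjusted p = 0.0204). *DREB2A* had an adjusted p of 0.0668 and *CBF3* of 0.503 in that fit.

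With 1 library left out, 0 to 3 genes were higher and 0 to 1 lower in limma, and no member was called. Each of these fits sets 1 library against 2, takes its spread only from the replicate gap of the other genotype and assumes that the lone library varies alike, so the lack of calls says nothing about stability. The log2 fold change then ran between -0.54 and 3.52 for *CBF1*, between -1.64 and 2.69 for *CBF3*, between -0.91 and 2.84 for *DREB2A*, between -1.575 and 1.82 for *DREB2B* and between -1.26 and 1.665 for *DREB2C*. These 5 genes turned below 0 without *ldl1 ldl2* replicate 2 and without WT replicate 1, each of which leaves the genotypes with unequal replicate numbers. A pseudocount of 0.1 gave 1 member, *DDF1*, at least 2-fold lower in replicate 2 in both genotypes, against 0, and 87 genes at least 2-fold lower in *ldl1 ldl2* in both replicate numbers, against 25. In all, 58 of 72 alternative values of the members kept their direction and their side of the threshold, 10 turned and 4 passed the threshold. The 10 came from fits with 1 library left out and the 4 from the replicate block. The other alternatives kept the fit without a block, so this tally does not measure stability. The count of 4 members at least 2-fold higher in *ldl1 ldl2* held under each pseudocount, filter and scaling tried. With no filter on low values *CBF4* joined the members at least 2-fold higher in replicate 2, which made 8. Read depth is not stated, so the precision of levels under 1 FPKM, as for *CBF1* and *CBF3* in WT replicate 1, is unknown.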
